A study of Mus musculus with 200 samples.

Results

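A set of 10 genes of costimulation and of the RANK-NF-kB maturation pathway was followed in single medullary thymic epithelial cells of the mouse. They were chosen by name, with earlier results of these data known. Cd80, Cd86, Cd274 and Icosl encode proteins that engage receptors on T cells. Cd40, Tnfrsf11a and Ltbr encode receptors of the TNF receptor superfamily. Traf6, Relb and Nfkb2 encode parts of the signalling chain below those receptors. The set is 10 of the 38406 genes in the count table, and all 10 were found there and had counts in every group. The table covers 200 cells from thymi of female B6xNOD mice aged 5 weeks, sorted as CD45-, Ly51-, MHCII+ and GFP+. All animals, controls included, carried an AireGFP transgene as a marker of Aire expression. Mice were wild-type (WT) or knockout (KO) for Aire, and the GFP gate was high (GFPhi) or low (GFPlo), which gave 61 WT GFPhi, 39 WT GFPlo, then 48 KO GFPhi and finally 52 KO GFPlo cells, with no further treatment given in the labels. Neither the deleted part of Aire nor the genomic sequence on the reporter is given in the labels.

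Medullary thymic epithelial cells present self antigens to developing T cells. RANK, encoded by Tnfrsf11a, together with CD40 and the lymphotoxin beta receptor, drives their growth and maturation. RANK and CD40 signal through the adaptor TRAF6 to classical NF-kB, and all 3 receptors can activate the alternative pathway, in which the p100 product of Nfkb2 is processed and pairs with RelB. Mature cells display more MHC class II and costimulatory proteins, among them CD80 and CD86, which bind CD28 and CTLA-4, and part of them express Aire.

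Promoter sequence was available from RefSeq (GRCm38.p6) for 7 of the 10 genes, in 9 windows that reach 250 bases before a start of transcription. A kappaB motif, the DNA element bound by NF-kB dimers, was searched by its consensus on both strands, and overlapping matches within a window were each counted. It was present in 4 of the 9 windows, before starts of 2 of the 7 genes, Icosl and Nfkb2. Nfkb2 had more than 1 of these windows. Of all 32851 windows of this length 7.25% held a match, and no share by gene was computed. The 2 stretches below, 1 for each gene, hold 1 match each and are shown as the examples that lie outside annotated exons. The 3 matches before another Nfkb2 start and 1 before a further Nfkb2 start are not printed. The Icosl stretch lies directly before the annotated gene, at chr10:78069118-78069301 on the plus strand. The Nfkb2 stretch, chr19:46305445-46305694 on the plus strand, lies before a downstream start within the gene. Capitals mark the bases matched, and a match describes the letters only.
Icosl: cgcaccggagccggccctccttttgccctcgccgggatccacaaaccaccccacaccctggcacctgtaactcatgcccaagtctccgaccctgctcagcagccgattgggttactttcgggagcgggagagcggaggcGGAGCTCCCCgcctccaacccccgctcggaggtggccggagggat
Nfkb2: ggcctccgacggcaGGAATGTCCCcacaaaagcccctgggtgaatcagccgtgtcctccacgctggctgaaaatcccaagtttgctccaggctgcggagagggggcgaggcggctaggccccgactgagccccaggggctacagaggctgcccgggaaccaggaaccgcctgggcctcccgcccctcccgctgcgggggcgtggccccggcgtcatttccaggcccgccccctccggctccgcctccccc

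Group sums were between 1847240 and 3468109 counts, and single cells had 2429 to 370365 counts, 29106.5 at the median. A level is given as counts in every 1000000 counts of its group (CPM), with exact Poisson 95% intervals in parentheses, which cover counting error of tags only and treat tags as independent molecules. No animal is named for any cell, so each group was 1 sample and no difference was tested. Cells came from 2 sort dates, with 72 and 128 cells. By group these were 23 and 38 in WT GFPhi, 18 and 21 in WT GFPlo, 9 and 39 in KO GFPhi and 22 and 30 in KO GFPlo. The values of each date, first and then second, are the only repeat within a group. Since the groups hold the dates in unequal shares, a ratio over both dates can lie outside its 2 date ratios, as for Cd40lg below. Of the epithelial markers, Krt8 had counts in 195, Epcam in 162, Krt14 in 130 and Krt5 in 92 of the 200 cells. Cortical epithelial genes summed to 687 CPM in WT GFPhi, 2056 in WT GFPlo, 496 in KO GFPhi and 405 in KO GFPlo. Their median cells were at 245, 416, 243 and 140 CPM. Leukocyte markers were also present despite the CD45- gate. Genes of the B lineage and plasma cells summed to 8995, 15633, 404 and 2242 CPM in WT GFPhi, WT GFPlo, then KO GFPhi and lastly KO GFPlo. All 19 measured genes were detected in each group. The median cells had 784, 326, 328 and 852 CPM in that order, so the groups ranked differently by sum and by median cell. The highest cells had 68393.5, 151432, 2497 and 13386 CPM. Dendritic and macrophage genes summed to between 378 and 1213 CPM. The 16 genes of the thymocyte and T cell list summed to 239, 187, 263 and 317 CPM in that order, with 14, 12, 13 and 14 of them detected and median cells at 204, 116, 244 and 119 CPM. Within that list the thymocyte gene Ptcra was at 0 in every cell and Cd3e had counts in 4 cells. In 68 wells, leukocyte markers summed to more than epithelial ones (22, 11, 11 and 24 wells in the same order). A narrower marker list, chosen after the values were seen and without 9 genes found in most other wells, marked 34 wells (11, 6, 0 and 17).

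Icosl, which encodes the ligand of ICOS on T cells, was the gene of the set found in most cells. It had counts in 61 of 61 WT GFPhi and 34 of 39 WT GFPlo cells, and in 47 of 48 KO GFPhi and 51 of 52 KO GFPlo ones. Its level was 2049 CPM (1998 to 2100.3) in KO GFPhi, 1320.3 (1282 to 1359) in WT GFPhi, 1000.4 (955 to 1047) in KO GFPlo and 638 (605 to 672) in WT GFPlo. The median cell had 2069, 1285, 797 and 314 CPM and the highest cell 5154, 4497, 4484 and 2938 CPM in that order. Single cells of all groups therefore overlapped widely, while the group levels were ordered with no overlap of their counting intervals. By sort date the level was 1930.1 and 2095 CPM in KO GFPhi, 1255 and 1353 in WT GFPhi, 1242 and 860.4 in KO GFPlo and 1036 and 269 in WT GFPlo. Both dates of KO GFPhi lay above both of WT GFPhi, and both of WT GFPhi above both of KO GFPlo. The dates of the 2 GFPlo groups overlapped, since WT GFPlo differed most between dates.

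Cd80 and Cd86 were sparse. Cd80 stood at 5.77 CPM (3.52 to 8.91) in WT GFPhi, 21.2 (15.7 to 28.2) in WT GFPlo, 26.9 (21.4 to 33.4) in KO GFPhi and 28.2 (21 to 36.9) in KO GFPlo, with counts in 9, 7, 15 and 14 cells. The lowest and the median cell of every group were at 0 for both genes, and the highest cell reached 163, 430.1, 317 and 768 CPM for Cd80. WT GFPhi was the low group, and the intervals of the other 3 overlapped. One cell held 60.4% of the Cd80 counts in WT GFPlo, whose dates gave 42.3 and 1.71 CPM. The dates of WT GFPhi gave 5.14 and 6.08 CPM, of KO GFPhi 30.5 and 25.5 and of KO GFPlo 48.7 and 16.3. After thinning to 10000 counts per cell, which leaves out 6, 7, 4 and 4 shallower cells, 5.45% of WT GFPhi and 9.38% of WT GFPlo cells kept a Cd80 count, as did 22.7% of KO GFPhi and 18.8% of KO GFPlo ones. In the KO GFPhi and KO GFPlo cells the exact binomial 95% intervals of these shares ran from 11.5 to 37.8% and from 8.95 to 32.6%, and they overlapped those of both WT groups. At 5000 counts, with 1, 0, 0 and 1 cells left out, the shares in the 4 groups lay close together, at 5.00, 5.13, 6.25 and 7.84%. At 20000 counts, with 20, 15, 13 and 22 left out, they were 7.32, 16.7, 22.9 and 20%.

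Cd86 stood at 12.7 CPM (9.22 to 17) in WT GFPhi, 26.5 (20.3 to 34.2) in WT GFPlo, 24.6 (19.3 to 30.8) in KO GFPhi and 53.1 (43.1 to 64.7) in KO GFPlo. Counts were found in 8, 8, 13 and 19 cells. KO GFPlo was highest over both dates together, but its dates gave 13.3 and 76.1 CPM against 59.8 and 10.7 in KO GFPhi, 19.3 and 33.3 in WT GFPlo and 31.7 and 3.04 in WT GFPhi, so every group overlapped with every other by date. B cells and dendritic cells also express Cd86, and its level was 38.9 CPM in the 68 leukocyte-marked wells and 18.5 in the other 132. Without those wells it was 18.5 CPM in KO GFPlo, 26.4 in KO GFPhi, 14.7 in WT GFPlo and 10.9 in WT GFPhi. Cd80 was at 18.3 CPM in the marked and 19.4 in the other wells.

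Cd274, which encodes PD-L1, the ligand of the inhibitory receptor PD-1, was at 42.4 CPM (35.8 to 49.8) in WT GFPhi, 67.7 (57.4 to 79.3) in WT GFPlo, 108 (96.5 to 120.3) in KO GFPhi and 70.4 (58.8 to 83.6) in KO GFPlo. It had counts in 27, 15, 12 and 24 cells. The high KO GFPhi level rested on 1 cell with 65.5% of the counts, and without it the level was 40.5 CPM. KO GFPhi thus had the highest level and the fewest cells with a count, and after thinning 20.5% of its cells had one, against 25.5%, 21.9% and 31.2% in WT GFPhi, WT GFPlo and KO GFPlo.

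**Figure D1:**
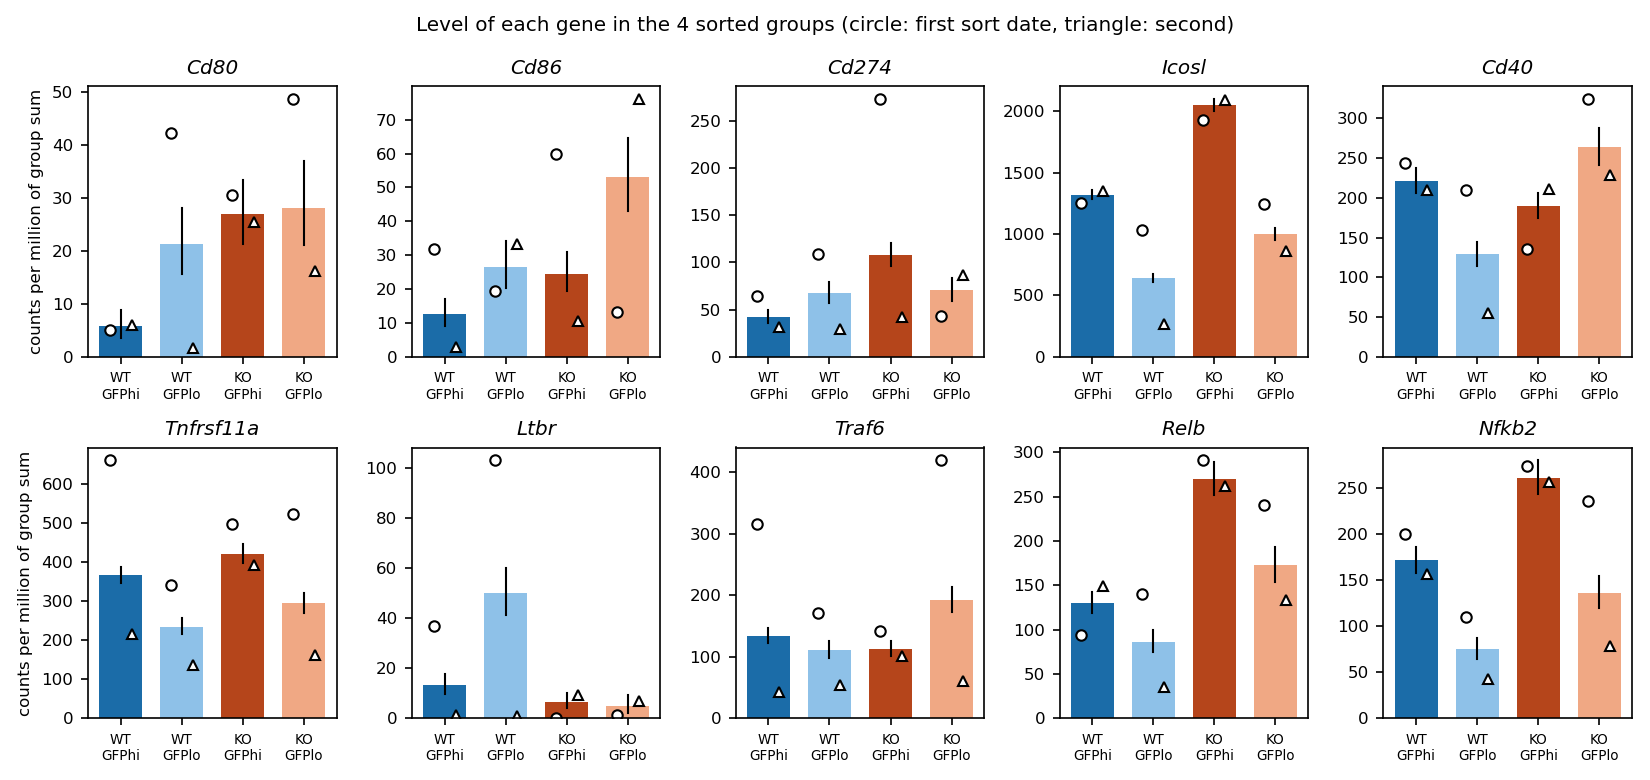
Level of each of the 10 genes in the 4 groups, in CPM of the group sum on linear axes from 0. Bars show all cells with exact Poisson 95% intervals, circles the first sort date and triangles the second. Icosl, Relb, Nfkb2, Cd80, Cd86 and Cd274 are higher in KO GFPhi than in WT GFPhi on both dates. The dates of Cd86, Ltbr and Traf6 lie far apart.

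Among the receptors, Tnfrsf11a was at 422 CPM (399 to 446) in KO GFPhi, 367 (347 to 387) in WT GFPhi, 296 (271 to 321) in KO GFPlo and 235 (216 to 256) in WT GFPlo. Counts were present in 44 of 48, 49 of 61, 39 of 52 and 28 of 39 cells. Counting intervals of the 4 groups did not overlap, but the dates gave 499 and 392, 662 and 217, 524 and 163 and 341 and 137 CPM in the same order. The first date was the higher in all 4 groups, and each neighbour in the order overlapped the next by date. RANK transcript was thus present in most cells of every group, WT GFPlo was lowest on both dates, and the order of the other 3 groups differed between dates. Its level was 234 CPM in leukocyte-marked wells and 406 in the others.

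Cd40, which encodes the receptor of CD40 ligand, was lowest in WT GFPlo at 129 CPM (115 to 145) and stood at 189.9 (175 to 206) in KO GFPhi, 221 (206 to 237) in WT GFPhi and 264 (241 to 288) in KO GFPlo. It had counts in 23 of 39, 44 of 48, 47 of 61 and 35 of 52 cells. Median cells had 16, 132, 163 and 177 CPM. The low position of WT GFPlo came with unequal dates, 209.5 and 54.6 CPM, and the first of these lay within the range of the other groups.

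Ltbr was detected in few cells, 8 of WT GFPhi and 5 of WT GFPlo, then 7 of KO GFPhi and lastly 6 of KO GFPlo. Its levels were 13.3 CPM (9.71 to 17.7), 50 (41.2 to 60.1), 6.64 (4.06 to 10.3) and 4.87 (2.23 to 9.25) in that order. One cell held 92% of the WT GFPlo counts, and without it the level there was 4.25 CPM. Ltbr in the sum of WT GFPlo is therefore mostly the transcript of a single cell.

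Within the signalling genes, Relb and Nfkb2 shared an order with Icosl in the GFPhi groups. Relb, the partner of the processed Nfkb2 product, was at 269.9 CPM (252 to 289) in KO GFPhi, 173 (154 to 193) in KO GFPlo, 130.3 (119 to 143) in WT GFPhi and 86.3 (74.6 to 99.3) in WT GFPlo. It had counts in 41 of 48, 38 of 52, 44 of 61 and 22 of 39 cells, and the median cells had 231, 116, 82.1 and 11.5 CPM. KO GFPhi was highest on both dates, 291 and 262 CPM, above both of KO GFPlo with 240.4 and 133, both of WT GFPhi with 93.4 and 149 and both of WT GFPlo with 141 and 35.8. The lower 3 groups overlapped by date.

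Nfkb2 was at 261 CPM (243 to 279.5) in KO GFPhi, 171 (158 to 186) in WT GFPhi, 136 (119.6 to 154) in KO GFPlo and 74.8 (63.9 to 86.9) in WT GFPlo. Counts were found in 42 of 48, 41 of 61, 32 of 52 and 19 of 39 cells. KO GFPhi, with 273 and 256 CPM by date, lay above every date of the other groups, which had 199.7 and 157 in WT GFPhi, 236 and 77.8 in KO GFPlo and 109 and 42.6 in WT GFPlo. Both dates of WT GFPhi also lay above both of WT GFPlo. The order of the groups for Traf6, which encodes the adaptor below RANK and CD40, differed between dates. It was at 192 CPM (172 to 213) in KO GFPlo, 134 (122 to 147) in WT GFPhi, 113 (101 to 125) in KO GFPhi and 111 (97.3 to 125) in WT GFPlo, with dates of 419 and 59.9, 315 and 42.6, 142 and 101 and 171 and 54.6 CPM. The first date was the higher in each group, and all groups overlapped.

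**Figure D2:**
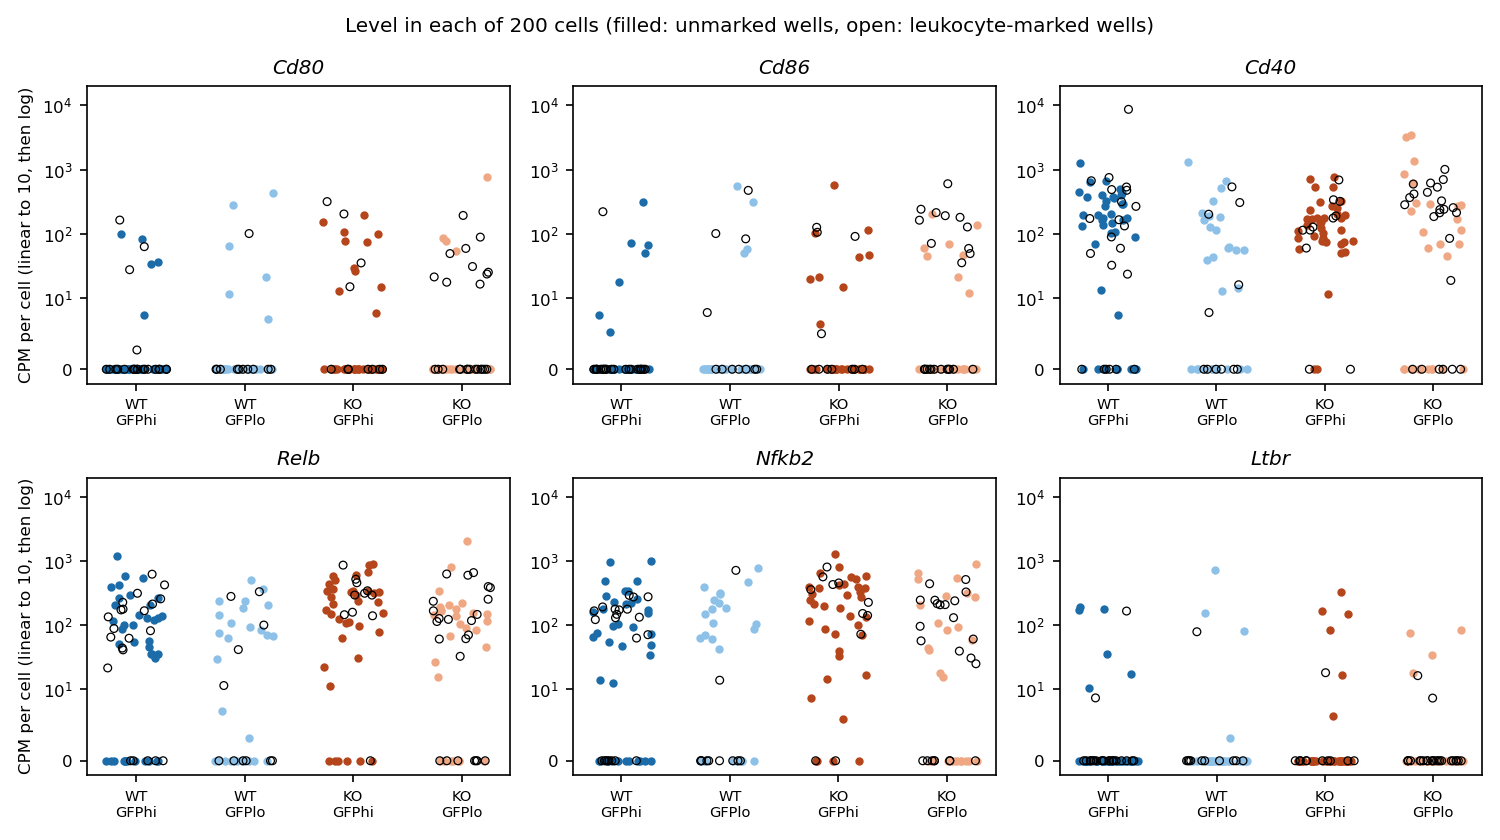
Level of 6 of the genes in each of the 200 cells, in CPM of that cell (linear to 10, then logarithmic). Filled points are unmarked wells and open points the 68 leukocyte-marked wells. Cd80, Cd86 and Ltbr are at 0 in most cells, while Cd40, Relb and Nfkb2 have counts in most cells of each group but for Nfkb2 in WT GFPlo, with counts in 19 of 39.

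Aire, the gene knocked out, encodes a nuclear protein needed for broad transcription of tissue-restricted genes in the medulla. It had 537 CPM (512 to 562) in WT GFPhi, 244 (224 to 265) in WT GFPlo, 815 (783 to 848) in KO GFPhi and 316 (291 to 342) in KO GFPlo. The transcript was thus present in cells labelled KO. A tag primed at the poly(A) tail may lie outside the deleted part, so these values check the genotype labels in neither direction.

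KO against WT in the GFPhi gate, the comparison of cells that share high reporter signal and differ in Aire, gave higher Cd80, Cd274 and Relb, each at least 2-fold. That is 3 of the 10 genes, all of which had the 10 counts required, where 20% of all genes passed the same fold upward. None of the 10 was at least 2-fold lower, where 29.1% of all genes were. The median log2 ratio of the 10 was 0.62 and that of all genes -0.13, and 7 of the 10 were higher in KO. The share of all genes higher in KO by any amount was not computed. Cd80 had a ratio of 4.66 (2.83 to 8.03), with an exact conditional 95% interval for counting error, and 5.93 and 4.19 by date. Relb had a ratio of 2.07 (1.84 to 2.33) and 3.11 and 1.76 by date. These 2 genes were higher in KO on each date and under each of the alternatives that gave a value. Cd274 had 2.55 (2.09 to 3.11), but 1.27 without the top cell of each group, and it was lower in KO, by a log2 ratio of -1.52, among cells made with umi primers.

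Icosl and Nfkb2 differed by less than 2-fold with similar ratios on both dates. The Icosl ratio was 1.55 (1.49 to 1.61), and 1.54 and 1.55 by date. For Nfkb2 it was 1.52 (1.37 to 1.70), and 1.37 and 1.63 by date. Among cells made with umi primers, 10 of KO and 14 of WT, the log2 ratios of Icosl and Nfkb2 were -0.12 and -0.09. Cd86 was 1.94-fold as high in KO, with 1.89 and 3.50 by date. The receptors and Traf6 lay closer to 1, with 0.859 (0.769 to 0.958) for Cd40, 1.15 (1.06 to 1.25) for Tnfrsf11a and 0.838 (0.726 to 0.966) for Traf6, and each of these changed sides of 1 between dates. Ltbr had a ratio of 0.501 (0.281 to 0.863) on few counts. No KO GFPhi well was marked by the narrower leukocyte list and 11 WT GFPhi wells were; without wells of that list the ratios were 3.48 for Cd80, 1.32 for Cd86, 1.88 for Cd274, 1.83 for Relb, 1.30 for Icosl and 1.48 for Nfkb2. Without the 33 GFPhi wells marked by the wider list they were 2.79, 2.39, 1.80, 1.83, 1.17 and 1.26. Of the 3 genes past 2-fold in all wells, Cd80 alone stayed so without either set of wells, and the part of leukocyte RNA in these ratios beyond this was not tested.

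In the GFPlo gate, Cd40 and Relb were at least 2-fold higher in KO and Ltbr at least 2-fold lower. These are 2 of 10 upward, against 23.6% of all genes, and 1 of 10 downward, against 27.3%. The median log2 ratio was 0.72 for the 10 genes and -0.05 for all genes, and 9 of the 10 were higher in KO over both dates together. Among the 9, Cd274 had a log2 ratio of 0.06, with -1.34 and 1.56 by date, and Cd86 was lower in KO on the first date. The share of all genes higher by any amount was not computed. Relb had 2.00 (1.67 to 2.40) and 1.71 and 3.72 by date, Cd40 2.04 (1.76 to 2.37) and 1.55 and 4.18. Both were close to the 2-fold line, and TMM scaling put both just under it. Without leukocyte-marked wells the ratios were 1.62 for Cd40 and 1.75 for Relb, and without wells of the narrower list 1.53 and 1.67. With ls primers alone they were 1.31 and 1.61, and with umi primers 24.5 and 4.94 on 188 and 112 counts. The low Ltbr ratio of 0.0975 (0.0434 to 0.192) is that of the single high WT GFPlo cell, and without the top cell of each group it was 0.918. Icosl was higher in KO with 1.57 (1.46 to 1.68) and 1.2 and 3.20 by date, and Nfkb2 with 1.82 (1.49 to 2.22) and 2.16 and 1.83. Cd80 had a log2 ratio of 0.41, with 0.21 and 2.97 by date, but -0.02 without leukocyte-marked wells. Relb, Nfkb2 and Icosl were thus higher in KO in both gates and on both dates. So was Cd80 in all wells, but its counting intervals in GFPlo overlapped, and WT GFPlo had 2 counts on the second date. The GFPlo log2 ratio of Cd80 was -0.10 without wells of the narrower list and -0.11 with umi primers. Cd86 had a ratio of 2.00 (1.44 to 2.80), 0.688 and 2.29 by date, and 0.744 without wells marked by the narrower list, of which KO GFPlo had 17 and WT GFPlo 6. Whether the KO and WT effects differed between the gates was not tested.

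**Figure D3:**
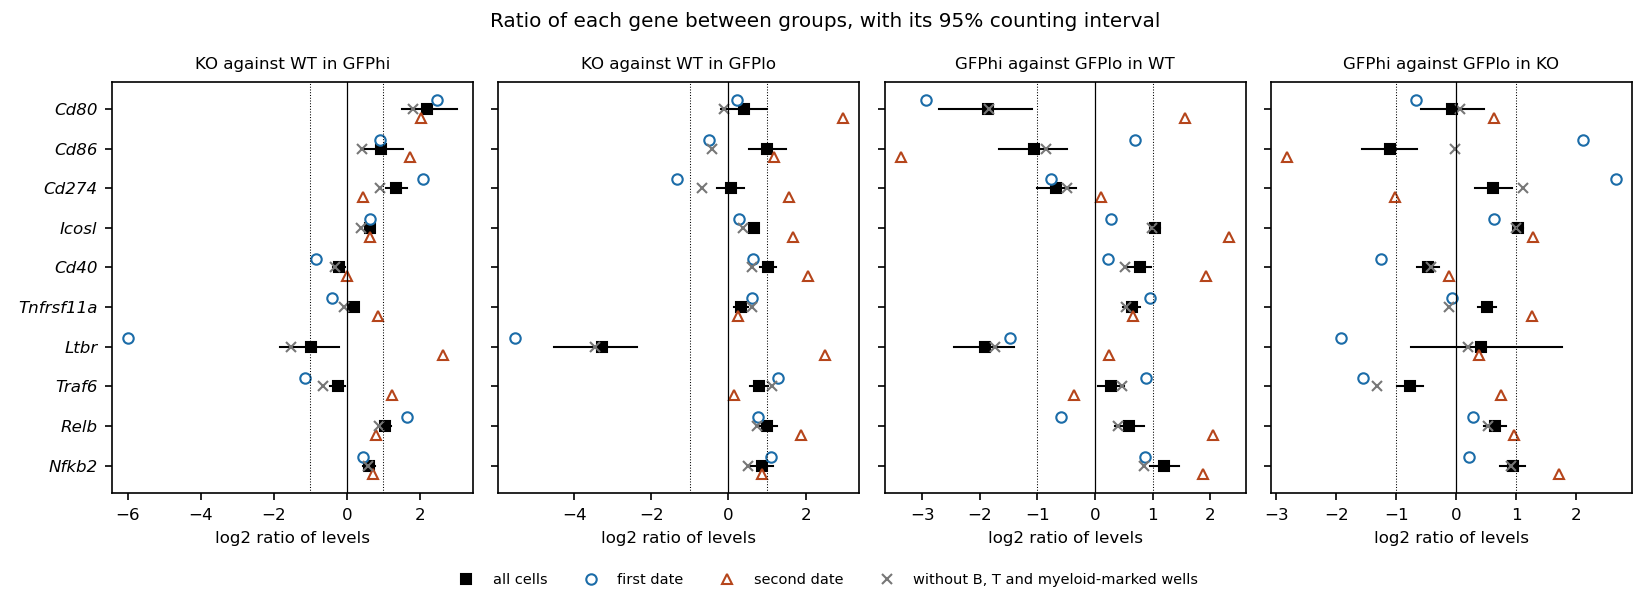
Log2 ratio of the level of each gene in the 4 comparisons, for all cells (squares, with 95% counting intervals), each sort date, and without wells marked by the narrower leukocyte list (crosses). Dotted lines mark 2-fold. Relb, Nfkb2, Icosl and Cd80 lie to the right of 0 at both dates in both KO against WT panels. The Cd80 cross in GFPlo lies to the left of 0, at -0.10. Cd86 switches sides between dates in 3 of the 4 panels and Ltbr in all 4.

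Between the gates, GFP signal was the sort criterion, so Aire and reporter levels are set by the sort. In WT, Icosl and Nfkb2 were at least 2-fold higher in GFPhi, 2 of 10 where 27.6% of all genes were. Cd80, Cd86 and Ltbr were at least 2-fold lower, 3 of 10 where 24.2% were. The median log2 ratio was 0.44 for the 10 genes and 0.05 for all. Icosl had 2.07 (1.95 to 2.20) and 1.21 and 5.04 by date, and Nfkb2 2.29 (1.93 to 2.73) and 1.83 and 3.68. Both were higher in GFPhi on each date and with any 1 library pool left out, but by very unequal amounts for Icosl. As a mean of per-cell levels the ratio was 1.22 for Nfkb2, while Icosl with 2.87 and Cd40 with 2.69 were past 2-fold. Without wells of the narrower leukocyte list Nfkb2 had 1.80 and Icosl 1.997. The 3 lower genes did not hold their direction on both dates. Cd80 had 0.272 (0.153 to 0.466) in all and 0.122 and 3.57 by date, Cd86 0.478 (0.316 to 0.717) and 1.64 and 0.0914, and Ltbr 0.265 (0.184 to 0.377) with 1.57 without the top cell of each group. Cd40 with 1.71 (1.49 to 1.97) and Tnfrsf11a with 1.56 (1.41 to 1.73) were higher in GFPhi on both dates, with 1.17 and 3.84 and 1.94 and 1.58.

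In KO, Icosl alone was at least 2-fold higher in GFPhi, 1 of 10 where 24.3% of all genes were, and Cd86 alone at least 2-fold lower, 1 of 10 where 26.1% were. The medians were 0.46 for the 10 genes and -0.03 for all genes on the log2 scale. Icosl had 2.05 (1.94 to 2.16) and 1.55 and 2.44 by date. Its ratio fell just under 2-fold without leukocyte-marked wells (1.83), without those of the narrower list (1.99) and as a mean of per-cell levels (1.94). There the gene past 2-fold was Cd274, with 2.82 and 2.17, or by per-cell means Ltbr, with 3.46 on 29 counts. Without the top cell of each group, but with all other wells, the ratios were 0.737 for Cd274 and 0.880 for Ltbr. Nfkb2 followed with 1.92 (1.66 to 2.22) and 1.16 and 3.28, and Relb with 1.56 (1.37 to 1.78) and 1.21 and 1.96. Cd86 had 0.463 (0.338 to 0.633), but 4.51 and 0.140 by date and 1.40 without leukocyte-marked wells. Cd80 was at 0.955 (0.666 to 1.38), with 0.627 and 1.57 by date. Comparisons that share a group are not independent of each other.

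Icosl lies beside Aire in the genome. On mm10 (GENCODE M21), Aire spans chr10:78030022-78043610 on the minus strand and Icosl chr10:78069302-78083913 on the plus strand, with starts 25.7 kb apart and Dnmt3l, which encodes a cofactor of DNA methyltransferases, between them. Across the 179 cells with at least 10000 counts, each thinned to that depth, the Spearman correlation of Icosl with Aire was 0.52. The 3 genes most like Icosl among 3761 detected in at least 40 of these cells were Ankrd33b, Aire and Tmem158 (rho 0.53, 0.52 and 0.51). Aire therefore ranked second. The correlation was 0.45 and 0.56 within dates, and 0.55, 0.48, 0.26 and 0.40 within WT GFPhi, WT GFPlo, then KO GFPhi and lastly KO GFPlo cells. It was 0.55 over the 120 of these cells in unmarked wells. Icosl also went with the GFP transcript (rho 0.52 over all 179 cells), whose deposited count was not thinned. With GFP fluorescence at the sort Icosl had rho 0.48, and 0.18 and 0.01 within the WT gates and 0.30 and 0.30 within the KO gates. These describe cells that share sort, pools and depth, and carry no test. The part of the reporter transgene, whose genomic content the labels do not give, in the Icosl counts was not tested.

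**Figure D4:**
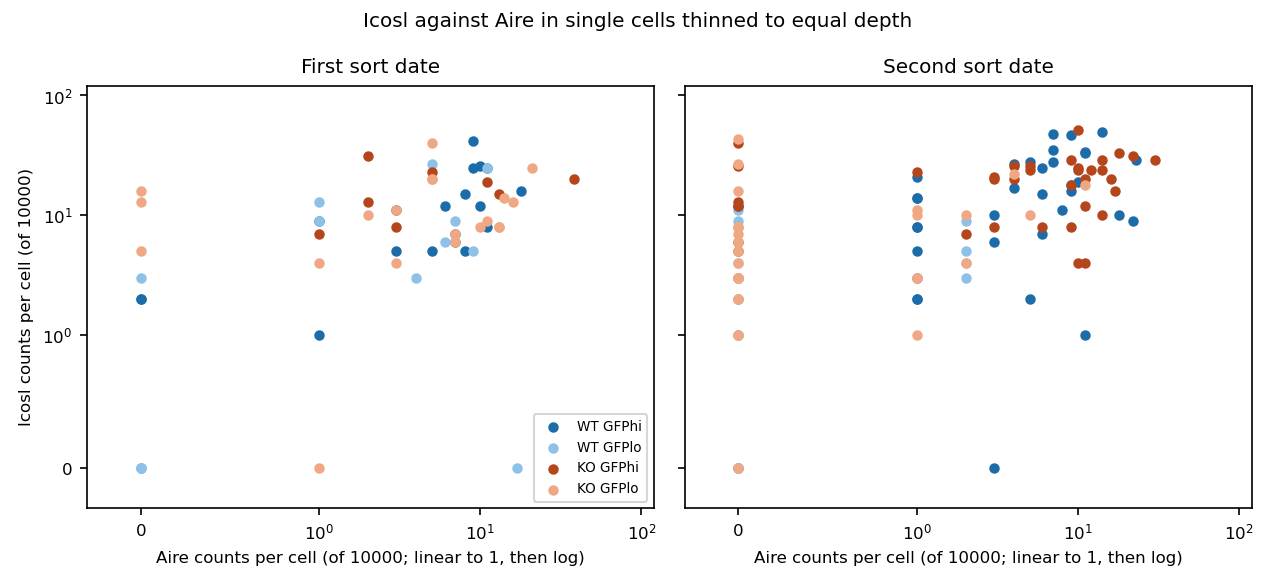
Icosl against Aire in 179 single cells thinned to 10000 counts, by sort date, with each group in its own colour (axes linear to 1, then logarithmic). Cells with several Aire counts mostly have several Icosl counts on both dates, while cells without Aire reach up to 43 Icosl counts on the second date.

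Over the 45 pairs of the 10 genes and the 179 cells of all groups, the median Spearman correlation was 0.05, and the highest values were those of Icosl with Cd40 (0.29), Relb (0.28) and Nfkb2 (0.25). Relb and Nfkb2 had 0.24, with both found in 70 of the 179 cells. Cd80 and Cd86, products often used together as a maturity mark, had a rho of 0.15. They were found together in 7 of the 179 cells, with Cd80 in 25 and Cd86 in 28. Within groups the values were higher for some pairs, and in the 32 WT GFPlo cells they reached 0.62 for Cd40 with Relb, 0.55 for Cd274 with Icosl and 0.54 for Cd274 with Cd40. In counts this sparse such values are no finding. The genes most like each of the others were Dnajc6, Epb4.1l4b and Marc2 (rho 0.43, 0.39 and 0.39) for Tnfrsf11a, Sirt1, Lrrc42 and Inf2 (rho 0.44, 0.35 and 0.33) for Nfkb2 and Tnfaip8, Atf4 and Calcb (rho 0.36, 0.33 and 0.32) for Cd40. For Traf6 they were Cpeb4, Cdc42ep3 and Slc7a14 (rho 0.35, 0.32 and 0.30), for Relb Ehd1, N4bp2l1 and Spop (rho 0.32, 0.31 and 0.30) and for Cd274 Xpr1, Arl6 and Foxp4 (rho 0.28, 0.27 and 0.27). MHC class II fluorescence at the sort, another mark of mature cells, had correlations from -0.08 for Cd274 to 0.10 for Icosl. All cells were sorted as MHCII+, so these values cover the range within that gate only.

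Around the 10 genes, 65 further genes of the same pathways were described: 17 other ligands of T cell receptors, 20 other TNF-family ligands and receptors, and 28 other NF-kB genes. In KO against WT of GFPhi, 2 of 13 ligands with enough counts were at least 2-fold higher and 4 lower, of the TNF family 3 and 6 of 14, and of the NF-kB genes 4 and 4 of 28. In GFPlo the counts were 5 and 4 of 14, 3 and 5 of 14, and 4 and 3 of 28. The shares of all genes are those given above for each comparison. For GFPhi against GFPlo they were 2 and 4 of 14, 4 and 4 of 16, and 1 and 8 of 28 in WT, and 1 and 6 of 12, 3 and 6 of 13, and 3 and 10 of 28 in KO.

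Of the ligands of RANK and CD40, Tnfsf11, which encodes RANK ligand, had 10 counts in 9 of 200 cells, whereas Cd40lg, the CD40 ligand of activated T cells, had 9099 counts in 132 cells. Cd40lg was at 1573 CPM in WT GFPhi, 938 in WT GFPlo, 179.6 in KO GFPhi and 532 in KO GFPlo. Its ratio of KO to WT was 0.114 (0.104 to 0.125) in GFPhi, with 0.126 and 0.147 by date, and 0.567 (0.525 to 0.612) in GFPlo, with 0.713 and 0.718. One cell held 36.2% of the WT GFPhi counts. The KO level was the lower on each date in both gates, although the first date was far above the second in every group. The T cell list, whose sums are given above, was highest in KO GFPlo and lowest in WT GFPlo, and its part in the Cd40lg counts was not tested. Tnfrsf11b, which encodes osteoprotegerin, the decoy receptor of RANK ligand, went the other way in GFPhi, with 107 CPM in WT and 388 in KO, a ratio of 3.63 (3.23 to 4.09) and of 3.26 and 4.39 by date, with 34.3% of the KO GFPhi counts in 1 cell. In GFPlo it was at 156 CPM in WT and 225 in KO, with ratios of 3.74 and 0.431 by date.

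Other ligands higher in KO GFPhi than in WT GFPhi were Tnfsf9 (4-1BB ligand) with 4.30 and Pdcd1lg2 (PD-L2) with 2.50, and both were higher on each date. Lower ones were Cd276 (B7-H3) with 0.159 and Pvrl2 (nectin-2) with 0.0194. Of the receptors, Tnfrsf10b, a TRAIL death receptor, had 8.69 in GFPhi but 0.367 in GFPlo, while Tnfrsf1a had 0.384 and Edar 0.397 in GFPhi. Of the signalling genes, Tradd had 23.3, Traf2 3.17, Rel 2.96 and Map3k7 2.11, and Rela, a subunit of classical NF-kB, 0.374. Rel was lower in KO on the first date, with 0.684 and 3.62 by date. Birc2, an inhibitor of the alternative pathway, had 0.441, Ikbke 0.395 and Traf5 0.393. Rela was also lower in KO in GFPlo, with 0.324, and in GFPhi against GFPlo of WT, with 0.288, and of KO, with 0.333. It had 322 counts in 48 cells, 6 of them KO GFPhi. Nfkb1, which encodes another classical subunit, had 1994 counts in 154 cells. Its levels were 161 CPM in WT GFPhi, 214 in WT GFPlo, 212 in KO GFPhi and 171 in KO GFPlo. Over both dates together Nfkb1 was higher in KO in GFPhi and in GFPhi against GFPlo of KO, and lower in the other comparisons. Relb and Nfkb2 were higher in each of the 4 comparisons over both dates together, with Relb lower in WT GFPhi on the first date.

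In GFPlo, KO cells had more of Tnfaip3, the feedback inhibitor A20, with 2.67, and of Icam1 with 2.00, Bcl3 with 2.41, Cd83 with 3.87, Cd48 with 4.02, Tnfrsf1b with 9.38, Tradd with 5.59 and Pdcd1lg2 with 3.43. The higher level rested on 1 date for Tradd, with 0.802 and 6.22 by date, and for Pdcd1lg2, with 53.8 and 0.942. Pvr, Ngfr and Tnfrsf21 were also past 2-fold upward on few counts, all from the second date. Lower in KO were Relt with 0.227, Lgals9 with 0.359, Nfkbie with 0.425, Pvrl2 with 0.329 and Cd276 with 0.0781. Leukocytes express Cd48, Cd83, Tnfrsf1b and Tnfaip3, and KO GFPlo had the most marked wells, so the part of such wells in these 4 ratios was not tested. Between gates in WT, GFPhi had more Edar (4.20), Traf5 (2.21) and Tnfrsf21 (12.4) and less Tnfaip3 (0.410), Traf1 (0.471), Ikbkg (0.388), Map3k7 (0.472), Lgals9 (0.395), Cd276 (0.402) and Tnfrsf10b (0.359). Lgals9 and Map3k7 changed sides of 1 between dates, with 2.43 and 0.157 and with 0.228 and 1.16. In KO, GFPhi had more Tnip1 (3.03), Nfkbie (2.98), Traf2 (3.33), Tnfsf9 (2.09), Tnfsf10 (3.68), Relt (4.56) and Tnfrsf10b (8.48). On the first date Tnfsf10 and Relt were instead lower in GFPhi, with 0.796 and 3.55 and 0.557 and 7.33 by date. GFPhi had less Tnfaip3 (0.131), Traf1 (0.296), Birc2 (0.453), Cd40lg (0.338), Cd200 (0.497), Ikbkg (0.411), Ikbke (0.265), Nfkbiz (0.169), Rel (0.216) and Tab3 (0.316), and also less Cd48, Cd83, Tnfrsf1b, Ngfr, Pvr and Tnfrsf21, all 6 past 2-fold. Cd83 and Tab3 were instead higher in GFPhi on the first date, with 1.97 and 0.0331 and 1.66 and 0.0833 by date. Pvr and Tnfrsf21 had first-date counts in GFPhi alone. The narrower leukocyte list marked 0 KO GFPhi and 17 KO GFPlo wells, and the leukocyte gene Ptprc was at 4.32 and 101 CPM in these groups. The part of marked wells in the ratios between the KO gates was not tested.

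Nfkbia, which encodes the classical inhibitor of NF-kB and is itself a target of it, was found in 198 of 200 cells, with 1629 CPM in WT GFPhi, 1624 in WT GFPlo, 2469 in KO GFPhi and 1901 in KO GFPlo. Its ratio of KO to WT was 1.52 (1.46 to 1.57) in GFPhi and 1.17 (1.12 to 1.23) in GFPlo, and by date 1.12 and 1.80 and then 0.783 and 2.35. Tnip1 and Birc3, other NF-kB targets, had ratios of 1.53 and 0.716 in GFPhi. Icam1 was at 394, 242, 579 and 485 CPM in WT GFPhi, WT GFPlo, then KO GFPhi and lastly KO GFPlo. Fas, which encodes a death receptor, lay between 135 CPM in WT GFPlo and 222 in WT GFPhi.

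**Figure D5:**
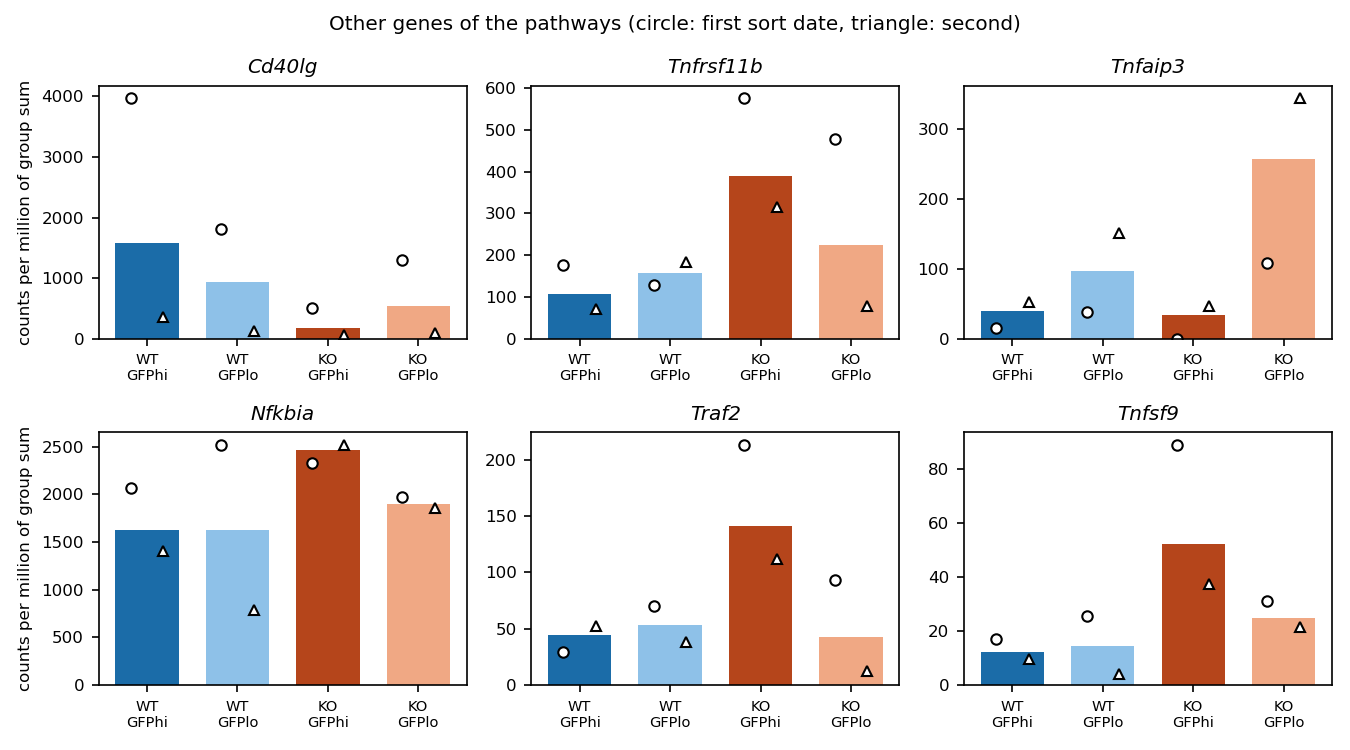
Levels of 6 further pathway genes, chosen after their values were seen, in CPM of the group sum on linear axes from 0, without intervals. Bars show all cells, circles the first and triangles the second sort date. Cd40lg is lowest in KO GFPhi, Tnfrsf11b, Traf2 and Tnfsf9 are highest there, and Tnfaip3 is highest in KO GFPlo.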

How the data were processed

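Transcripts of 200 sorted single cells were copied with oligo-dT primers and amplified by T7 transcription, per the labels' protocols. The authors deposited whole-number counts per gene and cell without normalization. The deposited metadata give flow cytometer intensity in arbitrary units and other fields such as sort date and pool, per the file headers. The submitters' processing notes name TopHat2, TopHat, Picard 1.79, SAMtools 0.1.19, HTSeq and mm10, with no role or order, and whether molecular identifiers were collapsed is not given in the sources used here. A cell's total exceeded its identifier count in 40 cells, so counts were treated as tags, and intervals are too narrow if tags are copies. If strand was not used, reads of overlapping genes such as Aire and Dnmt3l cannot be told apart.

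Counts were summed per group, with 4 comparisons, all 200 cells used, no filter on cells and no doublet step, and 0 value columns without a sample. No animal is named, so no test was made and the edgeR test planned for that case was not run. For log2 ratios, 0.5 count was first added on both sides, and a gene counted as past 2-fold only if both groups together had 10 counts or more. Levels, ratios and shares carry exact Poisson, conditional binomial (Clopper-Pearson) and binomial 95% intervals. Correlations used cells thinned to 10000 counts, with GFP transcript counts and fluorescence as deposited. Further pathway genes are named if among the 4 of their list with most counts, or if a 2-fold ratio rested on 20 or more counts, found in 5 or more cells where the gene was higher, no cell holding over 50% of them. The 3 genes most alike were sought among those in at least 40 cells. The genes, lists and rules were chosen with earlier results of these data known. Alternatives were TMM scaling (edgeR 4.0.16, R 4.3.3), means of per-cell levels, each date, primer kind, each of 12 pools left out, marked wells, the 40 shallowest cells or top cells left out, 1 CPM added, a minimum of 30 counts or none, and a 1.5-fold threshold. The work ran in Python 3.11.15 with scipy 1.17.1, pandas 2.3.3, numpy 2.4.6 and matplotlib 3.10.9, and the summing and ratio steps were tested on simulated data.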

Additional observations from a re-analysis of the deposited data

How the results depend on the processing

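Of the log2 ratios of the 10 genes under the alternatives, 660 moved by less than their counting interval, 243 moved by more and 12 reversed after being past 2-fold. The 12 were Cd274 in KO against WT of GFPhi (log2 -1.52 with umi primers, -0.10 without pool 6), Ltbr in KO against WT of GFPlo (2.51 on the second date, 0.15 without pool 5), Cd80 in GFPhi against GFPlo of WT (1.56 on the second date), Cd86 there (0.70 on the first date, 0.082 without pool 11), Ltbr there (0.25 on the second date, 0.65 without top cells, 1.56 without pool 5), and Cd86 in GFPhi against GFPlo of KO (2.11 on the first date, 0.49 without leukocyte-marked wells). With any other single pool left out the ratios that changed sign with a pool reached 1.69 for Cd274, -3.94 for Ltbr between genotypes, and -2.38 for Cd86 and -2.97 for Ltbr between the WT gates. The cause was not tested.

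The numbers of genes past 2-fold were small and moved often. For KO against WT in GFPhi, 3 higher became 1 without wells of the narrower list and 6 at 1.5-fold, and 0 lower became 2 on the first date and 1 without marked wells by either list, without the 40 shallowest cells, with umi primers and at 1.5-fold. For KO against WT in GFPlo, 2 higher became 0 with TMM scaling, 6 on the second date, 7 with umi and 1 with ls primers, 1 without marked wells by either list, 5 without top cells, 1 with 1 CPM added and 6 at 1.5-fold, and 1 lower became 2 on the first date and 0 on the second or without top cells. For GFPhi against GFPlo in WT, 2 higher became 0 on the first and 5 on the second date, 1 with ls and 4 with umi primers, 0 without wells of the narrower list and 5 at 1.5-fold, and 3 lower became 1 on the second date and with umi primers. In KO, 1 higher became 2 with TMM scaling, on the first date, with either primer kind and without top cells, 3 on the second date and 4 at 1.5-fold. The 1 lower became 0 with TMM scaling, per-cell means and ls primers, 2 on either date and at 1.5-fold, and 3 with umi primers. Leaving out 1 pool at a time gave 1 to 4 higher and 0 to 1 lower for KO against WT in GFPhi, 0 to 4 and 0 to 1 in GFPlo, 1 to 4 and 1 to 3 for the gates in WT, and 0 to 2 and 0 to 1 in KO. TMM scaling shifted all log2 ratios of the gates in KO by 0.12. The narrower list was chosen after seeing the data. No paired analysis was possible because replicate numbers only name cells and each group is 1 sample. The groups share sort dates and pools, for which values within each date and without each pool stand in.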
